A study of Rattus norvegicus with 30 samples.

Results

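The set described here has 34 genes: the enzymes that carry fatty acids into mitochondria and oxidize them, 2 peroxisomal enzymes that do the same work on other acyl chains, the acyl-CoA thioesterases beside them and the enzymes of ketone body oxidation. They were listed by name as genes of this pathway; no measured value enters the rule, but the list was drawn up with earlier results of these data known. All 34 had at least 1 probe set (a group of probes read as 1 value) above the filter on dim signals, out of 12451 genes tested on the array, and they were covered by 46 probe sets, of which 44 were tested.

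The heart draws most of its energy from fatty acids. Long-chain fatty acids are activated to acyl-CoA, moved into the mitochondrion as carnitine esters and shortened in repeated turns of dehydrogenation, hydration, a second oxidation and thiolysis, which feed acetyl-CoA to the citric acid cycle and electrons to the respiratory chain. Nuclear receptors of the PPAR and ERR families and their coactivator PGC-1 are well known as regulators of these genes in cardiac muscle.

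The samples were hearts of male Crl:Wi(Han) rats given a single dose of isoproterenol hydrochloride, a non-selective agonist of beta-adrenergic receptors, or vehicle. Hearts were taken 1, 3, 24 and 72 h after dosing, with 3 vehicle rats at each time and 5, 4, 4 and 5 isoproterenol rats in that order, and each of the 30 arrays (Affymetrix RAT230_2) is labelled as a biological replicate. The labels give the dose as 0.5 mg/kg/ml and the last time as 72 h, whereas the series' design text gives 48 h for the last time; the labels are followed here. No source used here states the animals' age, what the vehicle was or which region of the heart was taken, and each value is a mean over all cell types of the tissue. A lower value in such bulk tissue can mean fewer cells of a type or less RNA per cell, and these cannot be told apart. The number of arrays limits the precision of every value.

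The cardiomyocyte markers tested (14 genes) had a summed level between 16.61 and 16.86 on the log2 scale in every array, and their signals lie near the top of the array's scale, whose highest deposited intensity was 15512. The sum was taken after quantile normalization, which gives every array the same set of values. Its narrow range is therefore set in part by the processing and cannot show a steady content of muscle cells. The median deposited intensity of an array ranged from 21.2 to 70.4, a 3.32-fold range that quantile normalization levels. The range was not even over the groups. At 24 h the median was 57.7, 70.1, 35.2 and 70.4 in isoproterenol replicates 1 to 4 and 49.3, 29.9 and 29.7 in vehicle. At 72 h it ran from 22.5 to 55.6 in isoproterenol and from 23.5 to 41.8 in vehicle. The part of these differences in the results was not tested. Vehicle arrays carry the numbers 4 to 21 in their names and isoproterenol arrays 33 to 62, so treatment and the order of the arrays cannot be told apart.

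The oxidation genes were lower in isoproterenol hearts than in vehicle hearts at 24 and 72 h, with little movement at 1 and 3 h. Of the 34 genes, 16 were lower and 0 higher at 24 h, and 30 were lower and 0 higher at 72 h (limma, Benjamini-Hochberg adjusted p below 0.05 over all probe sets tested). Which time had more lower genes depended on the fit: on the arrays of a single time alone, 12 were lower at 24 h and 8 at 72 h. Among all genes tested, 7.16% were lower and 10% higher at 24 h, and 8.82% were lower and 13.2% higher at 72 h. The median change over the 34 was -0.58 at 24 h and -0.71 at 72 h on the log2 scale, against medians over all genes of -0.01 and 0.01. Because 27 of the 34 stand among the brightest 10% of genes by mean log2 value over all 30 arrays (1246 genes), these are the closer background: 20.8% of them were lower and 15.1% higher at 24 h, 23.4% lower and 13.4% higher at 72 h, with median changes of -0.11 and -0.12. At 1 h none of the 34 passed in either direction, with 1 at an unadjusted p below 0.05, while 2.37% of all genes were higher and 1.04% lower. At 3 h 1 was higher and 2 lower, beside 6.95% and 6.33% of all genes and 7.46% and 4.49% of the brightest, so the count at 3 h is near the background. Of the brightest genes 2.01% were higher and 0.883% lower at 1 h.

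**Figure D1:**
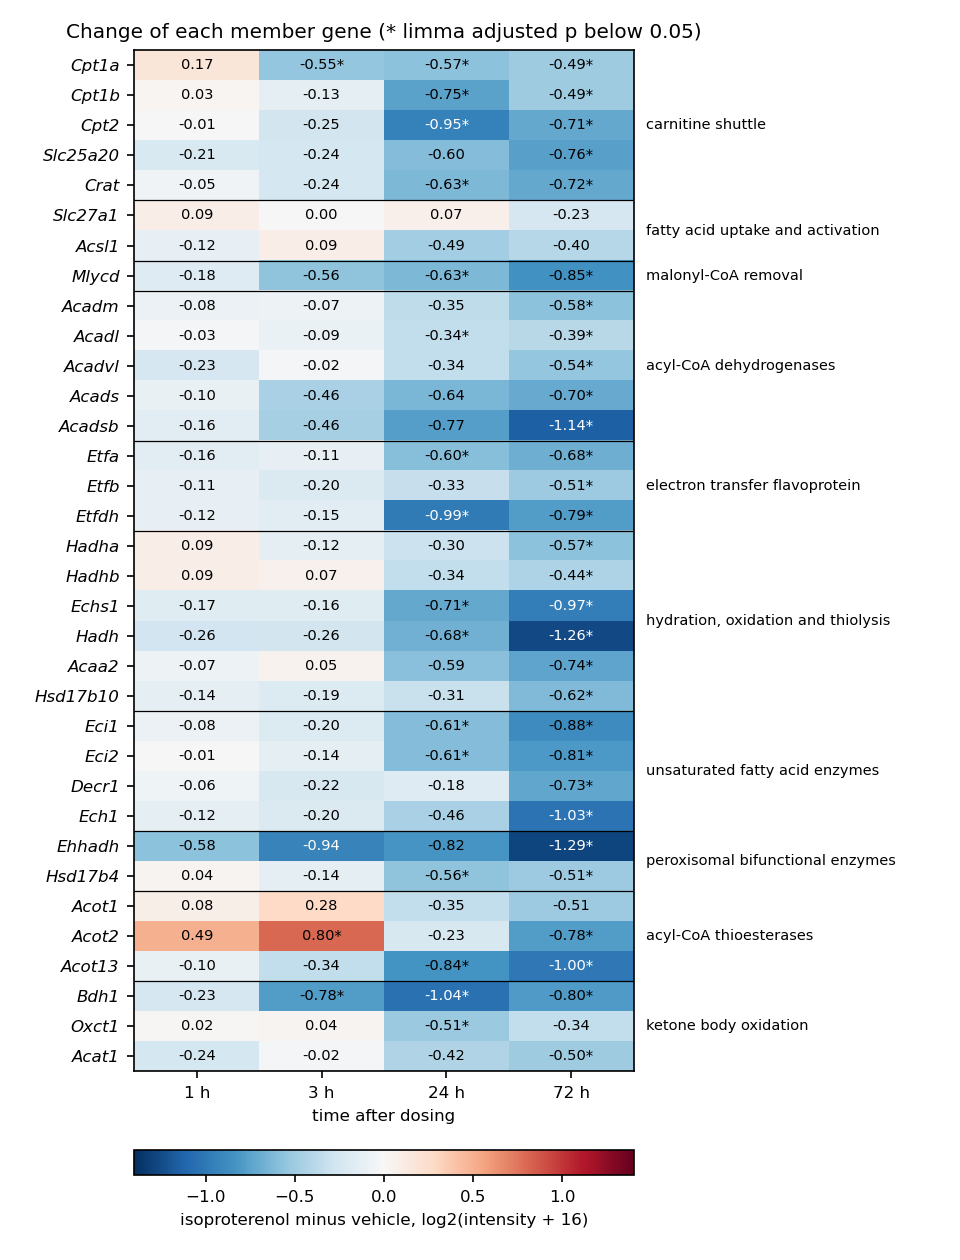
Each row is 1 of the 34 genes, grouped by role, and each column a time; colour and number give the isoproterenol minus vehicle difference of means on the log2(intensity + 16) scale, and a star marks a limma adjusted p below 0.05. The 24 h and 72 h columns are blue in nearly every row, with 16 and 30 starred cells.

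Of the genes, 15 were lower at both 24 and 72 h, 15 at 72 h only and 1, Oxct1, at 24 h only. By the brightest probe set of each gene, Slc27a1, Acsl1 and Acot1 passed at neither time. The difference from vehicle was greater at 72 h than at 24 h for 26 genes and smaller for 8, which were Cpt1a, Cpt1b, Cpt2, Acsl1, Etfdh, Hsd17b4, Bdh1 and Oxct1. None of these differences between times passed when the change in effect from 24 to 72 h was itself tested (0 genes at an unadjusted p below 0.05, lowest adjusted p 0.38, for Decr1; 2.71% of all genes passed). The change in effect from 3 to 24 h passed for 0 genes as well, although 8 had an unadjusted p below 0.05 and Etfdh had an adjusted p of 0.0651, against 8.32% of all genes passing. From 1 to 3 h it passed for 0 (1 at an unadjusted p below 0.05; 0.731% of all genes), and the 4 vehicle groups differed in 0 of the 34 genes by limma's F test (1 at an unadjusted p below 0.05; 0.0562% of all genes).

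**Figure D2:**
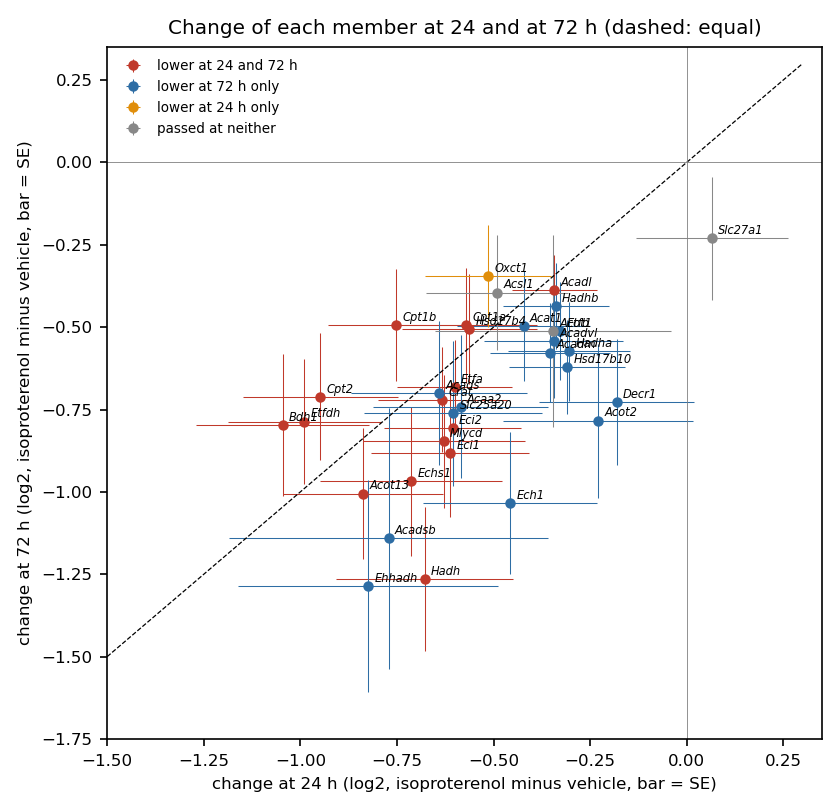
Each point is 1 gene, with its change at 24 h on the horizontal axis and at 72 h on the vertical axis (log2, isoproterenol minus vehicle, bars are SE). Points below the dashed line of equal change, 26 of 34, had the greater reduction at 72 h.

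The isoproterenol hearts of 1 group were not alike. At 72 h replicate 1 had 15 of the 34 genes below every vehicle array, whereas replicates 2, 3, 4 and 5 had 34, 34, 31 and 33. Replicate 1 was the highest isoproterenol array for 31 of the 34 genes and replicate 3 the lowest for 29. At 24 h replicate 3 had 24 genes below every vehicle array, against 32, 33 and 28 in replicates 1, 2 and 4, and it was the highest isoproterenol array for 29 genes. The median SD of a gene in the isoproterenol group was 0.428 at 72 h and 0.278 at 24 h, against 0.146 and 0.162 in vehicle. All isoproterenol arrays lay below all vehicle arrays for 23 genes at 24 h and 14 at 72 h, beside 12.4% and 7.38% of all genes; at 1 and 3 h this held for 5 and 9 genes, beside 8.57% and 11.2%. All isoproterenol arrays lay above all vehicle arrays for 1, 1, 0 and 0 genes at 1, 3, 24 and 72 h, beside 7.49%, 9.53%, 13% and 11.8% of all genes.

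The same arrays stood apart in monocyte and macrophage markers, and replicate 1 at 72 h in fibroblast markers as well. Monocyte and macrophage markers were higher in 13 of 17 genes at 24 h and 16 of 17 at 72 h, with Cd68 higher by 2.74 and 2.83 on the log2 scale. Their summed level was 12.29 in replicate 1 at 72 h and 13.93 to 14.32 in the other 4, against 11.39 to 11.68 in vehicle. At 24 h it was 12.89 in replicate 3 and 13.72 to 14.33 in the other 3, against 11.48 to 12.09 in vehicle. Fibroblast markers were higher in 9 of 11 genes at 72 h, with a summed level of 14.76 in replicate 1 and 15.76 to 16.01 in the others, against 14.04 to 14.58 in vehicle. At 24 h 2 fibroblast markers were higher and 2 lower, beside 10% and 7.16% of all genes, with a median of 0.15. The fibroblast sum at 24 h was 14.57 in replicate 3, within the 14.24 to 14.72 of its group, against 14.09 to 14.53 in vehicle. Of the 14 cardiomyocyte markers, 2 were lower and 1 higher at 24 h and 2 lower and 0 higher at 72 h with medians of -0.13 and -0.08. Their summed level was lowest, 16.61, in replicate 3 at 72 h and, at 24 h, 16.66 in replicate 2, the arrays in which 29 and 27 of the oxidation genes were lowest. Replicate 3 at 24 h also had the lowest median deposited intensity of its group, 35.2 against 57.7 to 70.4. Replicate 1 at 72 h, at 49.1, lay within the range of its group, 22.5 to 55.6. The part of these markers, or of array intensity, in the reductions was not tested.

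**Figure D3:**
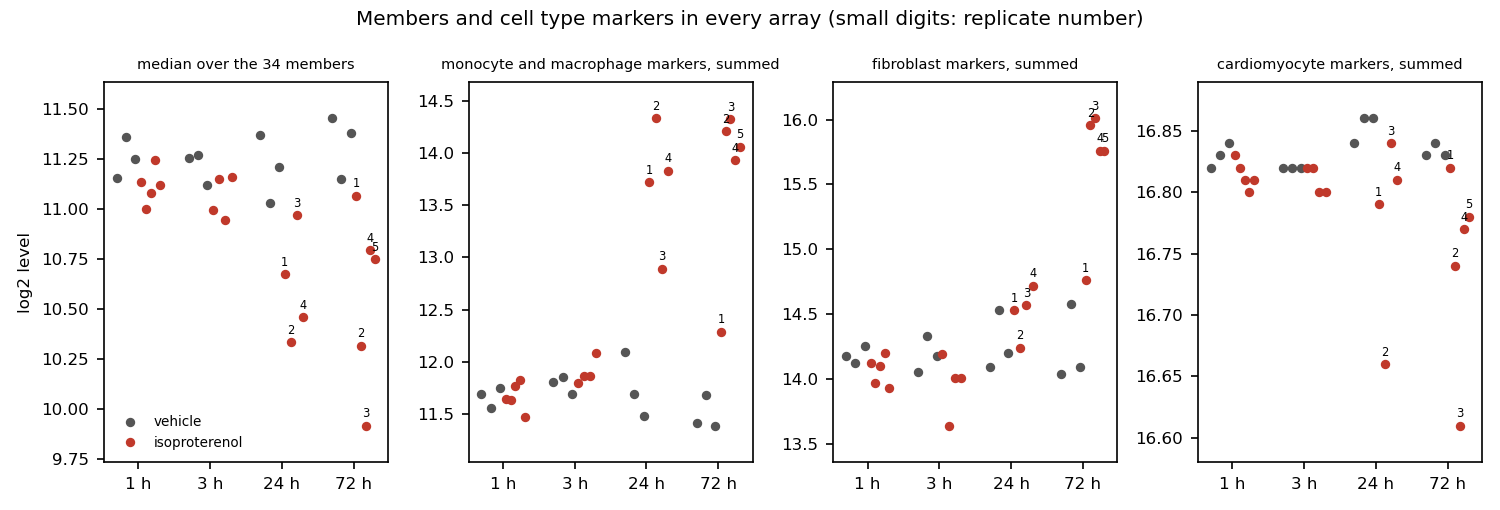
The panels show, for every array, the median log2 level of the 34 genes and the log2 of the summed level of macrophage, fibroblast and cardiomyocyte markers, by time and treatment, with replicate numbers beside the 24 and 72 h isoproterenol points. Replicate 1 at 72 h and replicate 3 at 24 h have the highest median of their isoproterenol group and the lowest macrophage sum.

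Without replicate 1 the 72 h count of lower genes was 32, and without replicate 3 the 24 h count was 19. Other arrays moved the counts further down. At 24 h the count was 6 without isoproterenol replicate 2, 9 without replicate 1 and 8 without replicate 4, and it was 7, 8 and 9 without vehicle replicates 1, 2 and 3. At 72 h it was 16 without vehicle replicate 1, 19 without vehicle replicate 3 and 18 without isoproterenol replicate 2 or replicate 3. At 24 h, 6 of the 16 calls held whichever of the 7 arrays was left out, namely Cpt1b, Cpt2, Etfa, Etfdh, Acot13 and Bdh1. At 72 h 14 of the 30 held without any 1 of the 8 arrays: Crat, Mlycd, Acadm, Etfa, Etfdh, Hadha, Echs1, Hadh, Hsd17b10, Eci1, Eci2, Ech1, Ehhadh and Acot13. Each of the other calls was lost without at least 1 array, with an adjusted p of up to 0.232 at 24 h (Eci1) and 0.208 at 72 h (Cpt1a). Scaling mattered as well: median centring in place of quantile normalization left 6 lower genes at 24 h and 17 at 72 h, and values without normalization left 0 and 0. Fitted on the arrays of a single time alone, 12 genes were lower at 24 h and 8 at 72 h. The other fits use a spread shared by all 8 groups, although the isoproterenol arrays at 72 h had the greatest median SD. Of the genes named above as holding, Acot13 lost its call in the fit of the 24 h arrays alone. Mlycd, Acadm, Etfa, Etfdh, Hadha, Echs1, Hsd17b10 and Ech1 lost theirs in the fit of the 72 h arrays alone. The ratio of 3' to 5' signal of actin, a sign of RNA integrity, was 1.06 ± 0.21 (log2, SD, n = 4) in isoproterenol and 1.69 ± 0.23 (n = 3) in vehicle hearts at 24 h, and 1.35 ± 0.22 (n = 5) and 1.35 ± 0.56 (n = 3) at 72 h. At 1 h it was 1.85 ± 0.18 (n = 5) in isoproterenol against 1.56 ± 0.03 (n = 3) in vehicle, and at 3 h 1.91 ± 0.13 (n = 4) against 1.28 ± 0.60 (n = 3). The same ratio of Gapdh, isoproterenol against vehicle, was 0.415 ± 0.073 against 0.348 ± 0.027 at 24 h and 0.420 ± 0.048 against 0.358 ± 0.035 at 72 h. At 1 h it was 0.416 ± 0.057 against 0.428 ± 0.037, and at 3 h 0.411 ± 0.067 against 0.367 ± 0.085. The part of RNA integrity in the result was not tested.

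Promoter sequences show what lies at the start of some of these genes. RefSeq promoter windows (GRCr8, 250 bases before to 50 after the annotated start) were matched for 29 of the 34 (not Cpt1b, Acadl, Acaa2, Decr1 and Ech1). The hexamer AGGTCA, which PPAR, ERR and other nuclear receptors read, was searched on both strands and stood in 7 of 29 windows (24.1%), beside 16.2% of 33469 windows in the genome. The ERR element TCAAGGTCA was in 0 of 29 windows and in 0.433% of all. A direct repeat AGGTCANAGGTCA, the form bound by PPAR with RXR, with up to 2 mismatches, was in 5 of 29 (17.2%; 3.77% of all). The cAMP response element TGACGTCA was in 1 of 29 (3.45%; 1.83% of all). A few windows are shown, in capitals where these motifs matched: Acadvl (very long-chain acyl-CoA dehydrogenase), which holds 2 hexamers and the closest direct repeat, Acadm (the medium-chain enzyme), which holds the cAMP element, and Hadhb (a trifunctional protein subunit), whose window overlaps that of its partner Hadha by 200 bases on opposite strands of chromosome 6. A match is a description of letters, not of binding.
Acadvl, GRCr8 chr10:55236656-55236955, minus strand: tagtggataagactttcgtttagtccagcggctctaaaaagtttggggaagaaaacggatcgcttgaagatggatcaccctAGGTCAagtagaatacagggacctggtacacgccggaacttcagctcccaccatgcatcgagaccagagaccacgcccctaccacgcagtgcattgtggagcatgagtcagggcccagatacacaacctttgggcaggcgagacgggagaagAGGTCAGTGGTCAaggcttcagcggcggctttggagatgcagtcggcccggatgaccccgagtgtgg
Acadm, GRCr8 chr2:245542815-245543114, minus strand: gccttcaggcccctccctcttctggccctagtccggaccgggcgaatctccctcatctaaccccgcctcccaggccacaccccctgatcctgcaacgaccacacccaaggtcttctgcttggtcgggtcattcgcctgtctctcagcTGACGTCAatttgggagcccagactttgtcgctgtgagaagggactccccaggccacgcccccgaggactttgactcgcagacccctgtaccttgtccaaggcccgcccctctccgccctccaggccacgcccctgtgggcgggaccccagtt
Hadhb, GRCr8 chr6:31907451-31907750, minus strand: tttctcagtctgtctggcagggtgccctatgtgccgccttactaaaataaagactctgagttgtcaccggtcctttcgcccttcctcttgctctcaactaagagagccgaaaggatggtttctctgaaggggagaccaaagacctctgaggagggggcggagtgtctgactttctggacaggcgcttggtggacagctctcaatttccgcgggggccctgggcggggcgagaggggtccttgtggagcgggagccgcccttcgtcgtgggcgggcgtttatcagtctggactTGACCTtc
In Acadvl the hexamers begin at positions -169 and -17 from the start, and AGGTCAGTGGTCA at -17, which overlaps the second hexamer, has 1 mismatch to the repeat. In Acadm TGACGTCA begins at -103, and in Hadhb the hexamer lies on the opposite strand, 43 bases after the start.

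At 1 and 3 h most of the genes overlapped the vehicle range. All isoproterenol arrays lay below all vehicle arrays for Etfa, Echs1, Hadh, Ehhadh and Acat1 at 1 h, and for Cpt1a, Cpt2, Crat, Mlycd, Acads, Etfb, Ech1, Acot13 and Bdh1 at 3 h, of which Cpt1a and Bdh1 passed the test. Acot13, for example, read 10.83, 10.83, 10.79 and 10.81 at 3 h against 11.21, 11.21 and 11.05, a change of -0.34 ± 0.21 (limma adjusted p = 0.323). Cpt1b read 11.73 to 12.06 against 11.99 to 12.14 at 3 h, and Acadm 12.33 to 12.54 against 12.51 to 12.55, both overlapping. Hadha read 11.44 to 11.70 against 11.68 to 11.73 and Oxct1 12.59 to 12.71 against 12.47 to 12.92, overlapping too. Apart from Acot2 and Ehhadh, the changes at 1 h of the genes with full values lay between -0.26 (Hadh) and 0.17 (Cpt1a).

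The carnitine shuttle moves acyl groups across the mitochondrial membranes. Of its 5 genes, 4 were lower at 24 h and 5 at 72 h, with medians of -0.63 and -0.71. Cpt1b, the muscle form of the outer-membrane carnitine palmitoyltransferase that sets the pace of entry, read 11.12, 10.86, 11.79 and 11.24 in the 4 isoproterenol arrays at 24 h and 11.89, 11.85 and 12.27 in vehicle (log2 of intensity plus 16, as for all values below). All isoproterenol arrays were below all vehicle arrays, and the gene fell by 0.75 ± 0.18 (SE; limma adjusted p = 0.00433), a 1.68-fold reduction. At 72 h the isoproterenol arrays read 12.15, 11.64, 11.03, 11.58 and 11.51 against 12.10, 12.06 and 12.06 in vehicle, with replicate 1 above the vehicle arrays. The gene fell there by 0.49 ± 0.17 (limma adjusted p = 0.0394). That call ended when any 1 of the 8 arrays except isoproterenol replicate 1 was left out, with an adjusted p of up to 0.143, and without replicate 1 the adjusted p was 0.0025.

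Cpt2, the inner-membrane enzyme that hands the acyl group back to CoA, showed the greatest reduction of the shuttle at 24 h. It read 10.05, 9.58, 10.60 and 9.99 with isoproterenol and 10.94, 10.83 and 11.25 with vehicle, with no overlap. It fell by 0.95 ± 0.20 (limma adjusted p = 0.00184), 1.93-fold. The 72 h arrays read 11.00, 10.19, 9.85, 10.60 and 10.34 against 11.27, 11.08 and 10.97, with replicate 1 within the vehicle range, and fell by 0.71 ± 0.19 (limma adjusted p = 0.00924; 0.0667 without vehicle replicate 1).

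Cpt1a, the form that prevails in liver and is also made in heart, was the 1 shuttle gene lower at 3 h. It read 8.67, 8.56, 8.29 and 8.30 with isoproterenol and 8.77, 9.03 and 9.20 with vehicle, without overlap, and fell by 0.55 ± 0.18 (limma adjusted p = 0.0493). At 24 h it read 9.0, 8.80, 9.30 and 8.89 against 9.59, 9.78 and 9.33, and fell by 0.57 ± 0.18 (limma adjusted p = 0.0348). The 72 h values were 8.68, 8.49, 8.04, 8.61 and 8.64 against 9.16, 9.21 and 8.60, overlapping, and fell by 0.49 ± 0.17 (limma adjusted p = 0.0471). These 3 calls lie close to the threshold: leaving out 1 array ended the call in 5 of 7 fits at 3 h (vehicle replicates 2 and 3, isoproterenol replicates 2, 3 and 4), 5 of 7 at 24 h (vehicle 1 and 2, isoproterenol 1, 2 and 4) and 5 of 8 at 72 h (vehicle 1 and 2, isoproterenol 2, 3 and 4), with adjusted p up to 0.165, 0.17 and 0.208. A second, dimmer probe set of Cpt1a fell by 0.88 at 3 h and by 0.90 at 72 h and changed by -0.53 at 24 h (adjusted p = 0.133). Slc25a20, the carnitine-acylcarnitine carrier of the inner membrane, was lower at 72 h, and Crat, which exchanges short acyl groups, at both times, by 0.63 and 0.72.

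The genes that bring fatty acids in and activate them did not pass by their brightest probe sets. Acsl1, the main long-chain acyl-CoA synthetase of heart, changed by -0.49 ± 0.18 at 24 h (limma adjusted p = 0.0745) and -0.40 ± 0.17 at 72 h (0.121). A second probe set of Acsl1 fell by 0.84 ± 0.23 at 24 h (limma adjusted p = 0.0149) and changed by -0.62 ± 0.22 at 72 h (0.053). The transporter Slc27a1 changed by 0.07 ± 0.20 and -0.23 ± 0.19. Mlycd, which breaks down malonyl-CoA, the inhibitor of the outer-membrane transferase, fell by 0.63 ± 0.21 at 24 h (limma adjusted p = 0.044) and by 0.85 ± 0.20 at 72 h (0.0035). The 24 h call of Mlycd was lost without any 1 of the 7 arrays except isoproterenol replicate 3, with an adjusted p of up to 0.148.

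The acyl-CoA dehydrogenases make the first oxidation of each turn and differ in the chain length they take. Of 5, 1 was lower at 24 h and all 5 at 72 h, with medians of -0.35 and -0.58. Acadl, the long-chain enzyme, read 12.41, 12.26, 12.68 and 12.59 with isoproterenol at 24 h and 12.93, 12.74 and 12.82 with vehicle, without overlap. It fell by 0.34 ± 0.11 (limma adjusted p = 0.0346), a call lost without isoproterenol replicate 1 or 2, or vehicle replicate 1 or 3, with an adjusted p of up to 0.162. By 72 h the arrays read 12.80, 12.23, 12.22, 12.42 and 12.47 against 12.88, 12.76 and 12.80, and fell by 0.39 ± 0.11 (limma adjusted p = 0.00952; 0.0621 without vehicle replicate 1).

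Acadm, the medium-chain enzyme, passed at 72 h and not at 24 h. At 24 h it read 12.27, 11.94, 12.55 and 12.42 against 12.77, 12.62 and 12.57, which do not overlap, a change of -0.35 ± 0.16 (limma adjusted p = 0.139). At 72 h it read 12.63, 11.75, 11.58, 12.26 and 12.18 against 12.75, 12.62 and 12.60. Replicate 1 lay among the vehicle arrays and the other 4 below them, and the gene fell by 0.58 ± 0.15 (limma adjusted p = 0.00662).

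Acadsb, which acts on short branched acyl-CoA, had a dim probe set, under the filter intensity of 23 (5.29 on this scale) in 3 of the 5 isoproterenol arrays at 72 h. It read 5.42, 4.74, 4.56, 5.16 and 5.46 against 6.22, 5.85 and 6.55, with no overlap, and fell by 1.14 ± 0.40 (limma adjusted p = 0.042), a size that is uncertain so near the floor. The call was lost without 1 of isoproterenol replicates 2, 3 and 4 or of vehicle replicates 1 and 3, with an adjusted p of up to 0.188. Acadvl and Acads fell by 0.54 and 0.70 at 72 h.

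Electrons from these dehydrogenases pass through the electron transfer flavoprotein to ubiquinone. Etfdh, the oxidoreductase that makes the last step, read 10.31, 9.88, 10.66 and 10.12 with isoproterenol at 24 h and 11.37, 11.11 and 11.22 with vehicle, without overlap. It fell by 0.99 ± 0.20 (limma adjusted p = 0.00113), a 1.99-fold reduction. The 72 h values were 11.01, 9.88, 9.72, 10.72 and 10.54 against 11.32, 10.99 and 11.17, and fell by 0.79 ± 0.19 (limma adjusted p = 0.00391), with replicate 1 within the vehicle range. Of the 2 subunits of the flavoprotein, Etfa fell by 0.60 and 0.68 at these times, and Etfb fell by 0.51 at 72 h and changed by -0.33 at 24 h (adjusted p = 0.176).

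**Figure D4:**
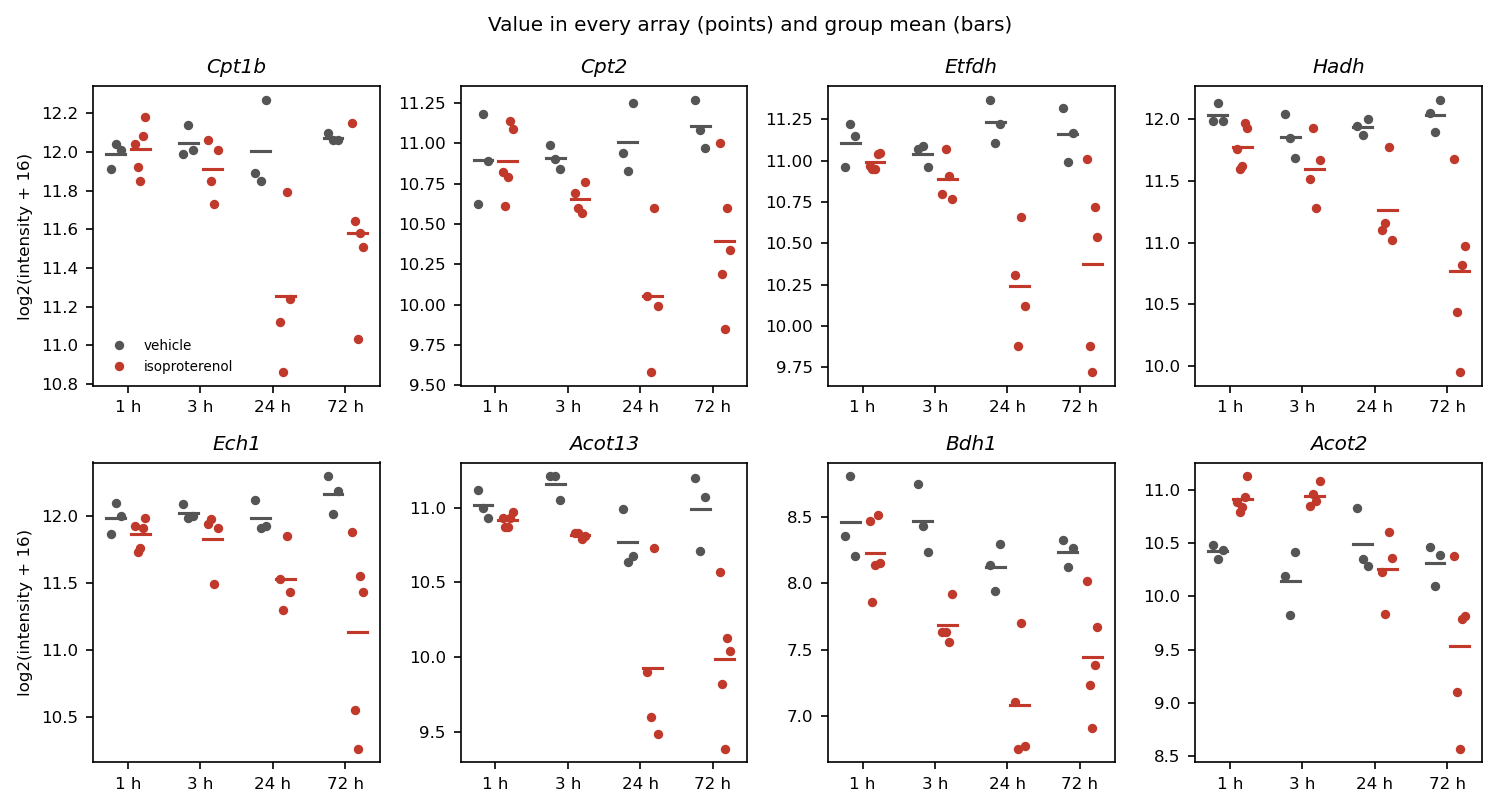
Points are single arrays and bars group means, on the log2(intensity + 16) scale, for 8 genes at 4 times. All isoproterenol points (red) lie below all vehicle points (grey) at 24 h for 6 of the 8 genes; Acot2 lies above vehicle at 1 and 3 h and below it for most arrays at 72 h.

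Hydration, the second oxidation and thiolysis finish each turn. Of 6 genes, 2 were lower at 24 h and all 6 at 72 h, with medians of -0.46 and -0.68. Hadh, the short-chain 3-hydroxyacyl-CoA dehydrogenase, read 11.68, 10.44, 9.95, 10.82 and 10.97 with isoproterenol at 72 h and 12.05, 11.90 and 12.16 with vehicle, without overlap. It fell by 1.26 ± 0.22 (limma adjusted p = 0.000153), 2.40-fold. At 24 h it read 11.10, 11.16, 11.78 and 11.02 against 11.95, 11.87 and 12.00, also without overlap, and fell by 0.68 ± 0.23 (limma adjusted p = 0.0459).

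Echs1, the short-chain enoyl-CoA hydratase, read 10.34, 9.87, 10.52 and 10.14 at 24 h against 11.03, 10.82 and 10.93, and fell by 0.71 ± 0.23 (limma adjusted p = 0.0409). The 24 h calls of Hadh and of Echs1 were each lost without any 1 of the 7 arrays except isoproterenol replicate 3, with adjusted p up to 0.134 and 0.161. At 72 h Echs1 read 10.94, 9.26, 9.25, 10.27 and 10.38 against 10.95, 11.01 and 11.01, with replicate 1 just under the lowest vehicle array, and fell by 0.97 ± 0.23 (limma adjusted p = 0.0029).

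Hadha, the subunit of the trifunctional protein that hydrates and dehydrogenates long chains, passed at 72 h. It read 11.74, 11.12, 10.86, 11.43 and 11.25 against 11.83, 11.82 and 11.90, without overlap, and fell by 0.57 ± 0.15 (limma adjusted p = 0.00779). At 24 h it read 11.23, 11.15, 11.73 and 11.59 against 11.83, 11.39 and 11.96, which overlap, a change of -0.30 ± 0.16 (limma adjusted p = 0.23). A pair of dim probe sets of Hadha changed by 0.19 and -0.60 at 72 h and did not pass (adjusted p = 0.705 and 0.102), and the mean over its probe sets did not pass either. Hadhb, the thiolase subunit, fell by 0.44 at 72 h, the thiolase Acaa2 by 0.74 and Hsd17b10, which also serves isoleucine breakdown, by 0.62.

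Fatty acids with double bonds need auxiliary enzymes. Of 4 genes, 2 were lower at 24 h and all 4 at 72 h, with medians of -0.53 and -0.84. Ech1, a dienoyl-CoA isomerase, read 11.88, 10.55, 10.26, 11.55 and 11.43 at 72 h against 12.30, 12.02 and 12.19, without overlap. It fell by 1.03 ± 0.21 (limma adjusted p = 0.00108), 2.05-fold, with replicates 2 and 3 more than 1 log2 unit below the vehicle arrays. The enoyl-CoA isomerases Eci1 and Eci2 fell by 0.61 each at 24 h and by 0.88 and 0.81 at 72 h. A dim probe set of Eci1 changed by -0.63 and -0.34 (adjusted p = 0.457 and 0.684), and the mean over its probe sets passed at neither time. Decr1, the dienoyl-CoA reductase, changed by -0.18 ± 0.20 at 24 h (adjusted p = 0.638) and fell by 0.73 ± 0.19 at 72 h (limma adjusted p = 0.00794; 0.0618 without vehicle replicate 3).

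Peroxisomes shorten very long and branched chains. Ehhadh, the bifunctional enzyme known as a PPAR-alpha target in liver, had a dim probe set, whose deposited intensity was under the filter value of 23 in 3 of the 5 isoproterenol arrays at 72 h. It read 5.74, 4.65, 4.76, 4.42 and 5.56 with isoproterenol and 6.56, 5.93 and 6.44 with vehicle, without overlap. It fell by 1.29 ± 0.32 (limma adjusted p = 0.00529), and the size of this change is uncertain so near the floor. At 3 h it read 5.99, 4.16, 5.09 and 5.41 against 6.47, 5.80 and 6.03, a change of -0.94 ± 0.34 (limma adjusted p = 0.069), and at 24 h 5.42, 5.48, 5.93 and 5.66 against 6.48, 6.0 and 6.86, a change of -0.82 ± 0.34 (0.109). Hsd17b4, the D-bifunctional enzyme, fell by 0.56 at 24 h and 0.51 at 72 h, calls that 6 of the 7 and 6 of the 8 fits without 1 array lost, with adjusted p up to 0.111 and 0.123. Among the other peroxisomal oxidation genes (15 tested), 3 were lower at 24 h and 3 at 72 h and none higher, with medians of -0.23 and -0.30; Pecr, a trans-2-enoyl-CoA reductase, fell by 0.75 and 0.71, and Scp2, a sterol carrier and thiolase, by 0.47 and 0.34.

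The thioesterases, which release free fatty acids from acyl-CoA, did not move as 1 group. Acot2, the mitochondrial form, was the 1 gene of the 34 that rose. At 3 h it read 10.85, 10.96, 10.90 and 11.08 with isoproterenol and 10.19, 9.83 and 10.42 with vehicle, without overlap, and rose by 0.80 ± 0.25 (limma adjusted p = 0.0294), 1.74-fold. At 1 h the 5 isoproterenol arrays, 10.89, 10.79, 10.84, 10.93 and 11.13, also lay above the vehicle arrays, 10.48, 10.35 and 10.44, a change of 0.49 ± 0.23 that did not pass (adjusted p = 0.381).

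At 24 h Acot2 read 10.23, 9.84, 10.61 and 10.36 against 10.83, 10.35 and 10.29, overlapping (adjusted p = 0.621). At 72 h it read 10.38, 9.10, 8.57, 9.79 and 9.82 against 10.46, 10.10 and 10.39, and fell by 0.78 ± 0.23 (limma adjusted p = 0.018), with replicate 1 within the vehicle range. The 3 h call was lost without 1 of vehicle replicates 1 and 2 or of isoproterenol replicates 2 and 4 (adjusted p up to 0.165), and the 72 h call without 1 of vehicle replicates 1 and 3 or of isoproterenol replicates 2 and 3 (up to 0.0919). Its other probe sets disagreed at 3 h, with changes of -0.29 and 0.09 that did not pass, and at 72 h 1 fell by 2.36 and the other fell by 1.30. Acot1, the cytosolic form, is a close copy of Acot2, so signal can be shared between them. It was dim, reading 4.97, 4.95, 5.0 and 4.94 with isoproterenol and 5.73, 5.44 and 4.76 with vehicle at 24 h. At 72 h it read 5.15, 4.77, 4.42, 5.26 and 5.06 against 5.22, 5.85 and 5.26, with overlap at both times, and it passed at no time.

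Acot13, a thioesterase associated with mitochondria, read 9.90, 9.60, 10.73 and 9.49 at 24 h against 10.99, 10.64 and 10.68. Replicate 3 lay among the vehicle arrays and the others below all of them, and the gene fell by 0.84 ± 0.21 (limma adjusted p = 0.00668). By 72 h its arrays read 10.57, 9.82, 9.39, 10.13 and 10.04 against 11.20, 10.71 and 11.07, without overlap, and fell by 1.00 ± 0.20 (limma adjusted p = 0.000627), 2.01-fold.

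Ketone bodies are oxidized by 3 enzymes. Of their genes, 1 was lower at 3 h, 2 at 24 h and 2 at 72 h. Bdh1, the first enzyme, which oxidizes beta-hydroxybutyrate, was the 1 lower at 3 h, with 7.63, 7.63, 7.56 and 7.92 against 8.75, 8.43 and 8.24, and fell by 0.78 ± 0.22 (limma adjusted p = 0.0198; lost without vehicle replicate 1 or 2, up to 0.121). At 24 h it had the greatest reduction of the 34, reading 7.10, 6.75, 7.70 and 6.77 against 8.14, 7.94 and 8.30. It fell by 1.04 ± 0.22 (limma adjusted p = 0.00208), 2.06-fold, without overlap.

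At 72 h Bdh1 read 8.02, 7.23, 6.91, 7.38 and 7.67 against 8.33, 8.12 and 8.27, and fell by 0.80 ± 0.21 (limma adjusted p = 0.00906; 0.0516 without vehicle replicate 1). A second probe set of Bdh1 fell by 0.50 at 3 h and 0.56 at 72 h and changed by -0.27 at 24 h (adjusted p = 0.333). Oxct1, which transfers CoA to acetoacetate, read 12.40, 11.81, 12.75 and 12.34 at 24 h against 12.72, 12.90 and 12.91, with replicate 3 within the vehicle range. It fell by 0.51 ± 0.16 (limma adjusted p = 0.0319), a call lost without 1 of vehicle replicates 2 and 3 or of isoproterenol replicates 2 and 4 (up to 0.193). Its 72 h arrays read 12.82, 12.46, 12.07, 12.07 and 12.35 against 12.57, 12.98 and 12.54, a change of -0.34 ± 0.16 (limma adjusted p = 0.128). Acat1, which splits acetoacetyl-CoA, fell by 0.50 at 72 h, and its second probe set fell by 0.63 at 24 h and 0.91 at 72 h.

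Neighbouring mitochondrial pathways are given beside the set; no test compared the lists. Of 17 genes of branched-chain amino acid breakdown, 13 were lower at 24 h and 10 at 72 h, with medians of -0.73 and -0.68; Mccc1, a subunit of methylcrotonyl-CoA carboxylase, fell by 1.11 and 0.96. Of 18 citric acid cycle genes, 10 and 13 were lower (medians -0.38 and -0.46), Sdhc, a subunit of succinate dehydrogenase, by 0.46 and 0.67. Of 41 subunits of oxidative phosphorylation, 3 were lower at 24 h and 26 at 72 h (medians -0.18 and -0.39), with Ndufs1 of complex I lower by 0.59 at 24 h and Cox7a1 of complex IV by 0.89 at 72 h. None of these 3 lists had a higher gene at either time. Of 15 glycolytic genes, 2 were lower and 1 higher at 24 h (13.3% and 6.67%) and 3 lower and 1 higher at 72 h (20% and 6.67%). Of the brightest genes 20.8% were lower and 15.1% higher at 24 h, and 23.4% and 13.4% at 72 h. The glycolytic counts are not above that background. Among them Pfkp, the platelet form of phosphofructokinase, rose by 1.52 and 1.07, and Pfkm, the muscle form, fell by 0.75 and 0.61.

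**Figure D5:**
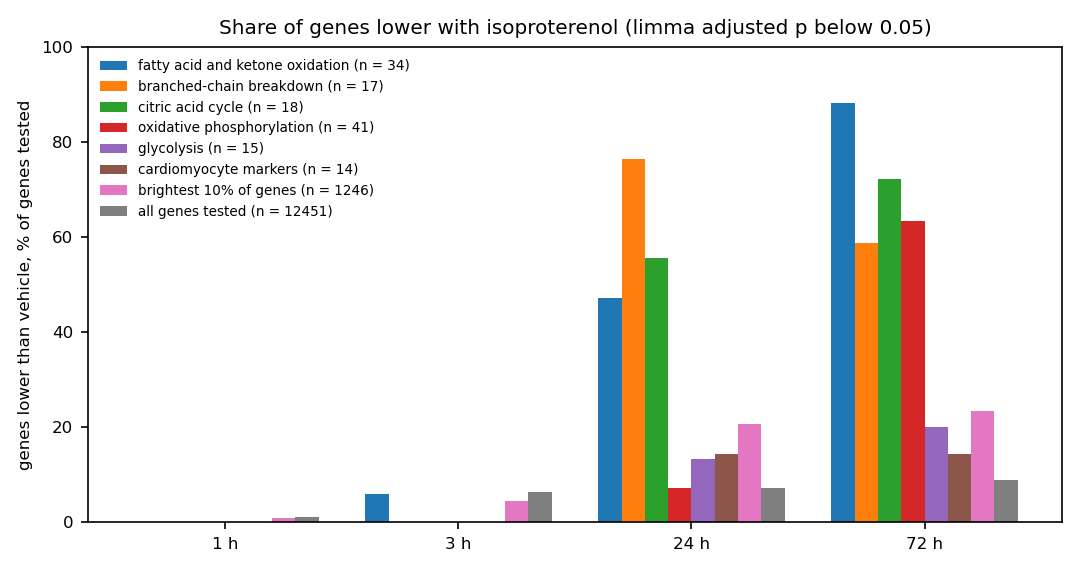
Bars give the percentage of tested genes in each list that were lower with isoproterenol (limma adjusted p below 0.05) at each time, with the number of genes in the legend. At 72 h the share was 88.2% for the 34 oxidation genes, 23.4% for the brightest 10% of genes and 8.82% for all genes.

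Of other genes of fatty acid activation, carnitine and ketone metabolism (23 tested), 5 were lower and 3 higher at 24 h (21.7% and 13%). At 72 h 6 were lower and 4 higher (26.1% and 17.4%). Of all genes 7.16% were lower and 10% higher at 24 h, and 8.82% and 13.2% at 72 h, so the counts of higher genes are near the background. Acsl4, an acyl-CoA synthetase that prefers arachidonate, rose by 1.52 ± 0.21 at 3 h (limma adjusted p = 4.31e-06), 0.89 at 24 h and 0.81 at 72 h. Acsl6, another synthetase, fell by 1.45 at 24 h and 0.98 at 72 h, and Acsl5 rose by 0.79 at 24 h.

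A few regulators of the pathway passed at the early times, too few to be read as a trait of the list. Of 21 tested, 1 was higher and 1 lower at 1 h, 2 and 3 at 3 h, 0 and 4 at 24 h and 0 and 8 at 72 h. Of all genes 2.37% were higher and 1.04% lower at 1 h, and 6.95% and 6.33% at 3 h. The shares of all genes were 10% and 7.16% at 24 h, and 13.2% and 8.82% at 72 h. Ppargc1a, which encodes PGC-1 alpha, rose by 0.86 ± 0.24 at 1 h and 0.94 ± 0.25 at 3 h (limma adjusted p = 0.0394 and 0.011), and fell by 0.73 ± 0.24 at 72 h (0.0282). Klf15, a transcription factor of cardiac lipid metabolism, fell by 0.85 at 1 h and fell by 2.10 at 3 h. Rxrg, a retinoid X receptor and so a partner of the PPARs, fell by 1.22 at 24 h and 0.96 at 72 h. Prkaa2, the AMPK catalytic subunit of muscle, fell by 1.93 at 72 h, and Ppargc1b, which encodes PGC-1 beta, fell by 1.04 there.

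PPAR targets outside the 34 (10 tested) were 2 higher and 0 lower at 1 h, 2 and 1 at 3 h, 1 and 2 at 24 h and 0 and 4 at 72 h. These counts stand beside the same shares of all genes, and with 10 genes they are too small to describe the list. Angptl4, a secreted inhibitor of lipoprotein lipase, rose by 1.98 at 1 h, 4.01 at 3 h and 1.53 at 24 h. Pdk4, the kinase that shuts off pyruvate dehydrogenase, rose by 1.20 at 1 h and 1.35 at 3 h and fell by 1.06 at 72 h. Plin5, a lipid droplet protein of oxidative tissue, fell by 1.34 at 24 h and 1.20 at 72 h, and Cd36, the fatty acid translocase, fell by 1.17 at 72 h.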

How the data were processed

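The table holds 31099 probe sets on 30 arrays as deposited intensity values on a linear scale, per the series' value table; no source used here states how the authors summarised and scaled the probes. Values were set to log2(intensity + 16) without 57 control probe sets, quantile normalized, and kept where the deposited intensity reached the 40th percentile of all values (23) on at least 3 arrays, leaving 24292 probe sets and 12451 genes. limma 3.58.1 (R 4.3.3) fitted 8 group means (22 residual degrees of freedom, variance trend on intensity), with p-values Benjamini-Hochberg adjusted over all probe sets within a comparison. A gene stands by its brightest probe set; names come from the platform annotation, updated through RefSeq GRCr8, with 20826 probe sets naming 1 gene, 436 several and 9780 none. The fit was tested on simulated data, with pass limits relaxed after the first runs. It missed many changes of the size seen here, so a gene that did not pass is not shown to be unchanged. The simulated noise of a probe set had the same spread in every group. The simulation therefore cannot show false calls that come from unequal spread between groups.

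The 34 genes, the lists and the tests were chosen with earlier results of these data known. Full values are given for the 6 genes with the greatest change among those past the threshold at each time, and for 10 named by role (Cpt1a, Cpt1b, Acadm, Acadl, Hadha, Ehhadh, Acot1, Acot2, Bdh1, Oxct1); of other lists up to 4 per time. The p-values and SEs refer to these samples and rest on a spread estimated over all 8 groups together. They do not rest on the spread of the compared groups alone. At 72 h the median SD was 0.428 in isoproterenol and 0.146 in vehicle, so the SEs there can understate the spread of the isoproterenol arrays. Alternatives covered scaling, pseudocount, filter, trend, array weights, probe set choice, replicate number and leaving out each array.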

Additional observations from a re-analysis of the deposited data

Results flagged for a closer look

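Each gene was looked at in each isoproterenol group of 4 or 5 arrays, which made 136 sets that share the same arrays. In 6 of the 136, 1 array lay far from the others (Dixon's gap test at its 95% value, which chance passes in about 1 set in 20). The count is near what chance would give. Etfb, the beta subunit of the electron transfer flavoprotein, read 11.61 in isoproterenol replicate 5 at 1 h, with the nearest array at 11.88. Ech1 read 11.49 in isoproterenol replicate 3 at 3 h, with the nearest at 11.91, and Oxct1 read 12.59 in isoproterenol replicate 2 at 3 h, with the nearest at 12.69. At 24 h Decr1 read 11.65 in isoproterenol replicate 4, above the nearest at 11.41. In replicate 3 of the same group Hsd17b4 read 9.97, above 9.41, and Slc25a20 read 9.98, above 9.54. That array had the highest median over the 34 genes of its group, the lowest macrophage marker sum and the lowest median deposited intensity.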

How the results depend on the processing

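At 24 and 72 h the genes lay below the median of all genes under every scaling, 33 of 34 and 34 of 34, but the calls depend on it. Without normalization the counts of lower genes were 0 at 3, 24 and 72 h and of higher genes 0 at 3 h, while the median of all genes stood at 0.53 and 0.46 at 24 and 72 h; Cpt1a (0.0494), Acadl (0.0629) and Hsd17b4 (0.0291) were the called genes that changed sign at 24 h, and Cpt1a (0.0963) and Hsd17b4 (0.0304) at 72 h, among 14 and 3 genes that changed sign in all. Median centring gave 0, 6 and 17 lower genes at 3, 24 and 72 h, with 13 genes changing sign at 3 h, with the median of all genes at 0.11 at 72 h. No filter gave 1 and 10 at 3 and 24 h, no intensity trend 1 and 8, a pseudocount of 64 gave 1 at 3 h, and the arrays of the compared groups alone gave 1 lower gene at 3 h, 8 at 72 h and 1 higher at 1 h. The mean over probe sets gave 0 higher genes at 3 h and 1 gene differing between 24 and 72 h. Genes differing between 3 and 24 h numbered 2 with trimmed mean scaling, 4 with array weights and 2 with the compared arrays alone, and array weights gave 1 gene differing among vehicle times. Leaving out 1 array gave 0 to 1 higher and 0 to 3 lower genes at 3 h, 6 to 19 lower at 24 h, 16 to 32 at 72 h and 0 to 6 differing between 3 and 24 h. The replicate numbers did not pair the samples (correlations of deviations -0.0739 to 0.125); with the number as a block, 15 and 28 genes were lower at 24 and 72 h and 2 lower and 1 higher at 3 h. Apart from construction of the alternatives, the cause of these moves was not tested. Over single genes, times and alternatives, 259 values lost their call, 31 gained one, 5 called values changed sign and 94 values that had not passed did so. Acadsb, Ehhadh and Acot1 are limited by dim signal.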

Other observations

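The probe sets listed for a pair of genes each, 2 in all, were not counted among the 34. The probe set shared by Eci3 and Eci2 changed by -0.58 at 1 h (limma adjusted p = 0.169) and -0.40 at 24 h (0.242), and fell by 0.71 ± 0.21 at 72 h (0.0152). The probe set shared by Acot2 and Acot1 changed by 0.49 at 1 h, 0.85 at 3 h (limma adjusted p = 0.143) and -0.21 at 24 h, and fell by 1.47 ± 0.35 at 72 h (0.00393).

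Of 6 neutrophil markers tested, 2 were higher at 1 h, 4 at 3 h, 1 at 24 h and 0 at 72 h, with Il1r2, a decoy receptor of interleukin-1, higher by 2.30 ± 0.30 at 3 h (limma adjusted p = 1.5e-06) and S100a8 and S100a9, the calprotectin subunits, by 1.91 and 2.06. Endothelial markers (8 tested) were lower in 3 genes at 3 h, among them Tie1, by 1.28, and Emcn, by 1.23, beside 6.33% of all genes. The list was mixed at that time, with 3 genes above zero, up to 0.51, and a median of -0.21. At 1 h 1 endothelial marker was higher and 0 lower. Postn, which encodes the matrix protein periostin, rose by 3.67 ± 0.56 at 24 h and 5.23 ± 0.54 at 72 h (limma adjusted p = 7.52e-05 and 8.83e-07). It is 1 of the 11 fibroblast markers, of which 2 were higher and 2 lower at 24 h, with a median of 0.15, so it does not stand for the list at that time.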
